A study of Mus musculus with 12 samples.

Results

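The 38 imprinted genes described here were chosen by symbol from the 24421 gene rows of a table of raw RNA read counts, and all 38 had a row. They fall into the H19 and Igf2 domain, the Kcnq1ot1 domain, the Dlk1 and Meg3 domain, the Peg3 domain, the Peg10 and Sgce domain, the Snrpn and Ube3a domain, the Nnat and Blcap pair, the Igf2r and Airn pair and 9 single genes. Of them, 37 passed the filter on low counts and were tested with 15281 genes in all. Snrpn was not tested, because its counts were too low.

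Poly(A) RNA was sequenced from E14, a line of mouse embryonic stem cells, grown on gelatin in serum and LIF. KO paused cells carried a knockout of Mettl3 and had been held for 2 weeks with 200 nM INK128, an inhibitor of the growth kinase mTOR. KO FBS cells carried the knockout without the inhibitor, WT paused cells were wild type with it, and WT FBS cells were wild type without it, with 3 samples in each of the 4 groups. METTL3 is the catalytic subunit of the enzyme that places N6-methyladenosine on messenger RNA. Nothing in the labels says that the samples of a group were separate clones or cultures, so p-values measure the spread between these samples. The comparisons ask how the lines differ with and without the inhibitor, what pausing does to each, and whether both respond alike.

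Libraries held 10339130 to 39034079 counts on genes. All 8 embryonic stem cell markers were detected in every group, with summed levels of 2828 to 3117 CPM in KO paused and 1992 to 2337 CPM in KO FBS libraries, against 5405 to 5821 CPM in WT paused and 4242 to 4935 CPM in WT FBS libraries. Mettl3 itself stood at 28.8 to 31.4 CPM in KO paused and 25.5 to 28.6 CPM in KO FBS libraries, against 33.6 to 39.1 CPM in WT paused and 31.2 to 37.4 CPM in WT FBS libraries. Which part of Mettl3 was deleted is not stated, so its RNA does not check the genotype. The KO and WT lines differed in more than Mettl3: 4 Y-linked genes had 593 to 3124 counts in each KO library and 0 to 7 in each WT library. A difference between genotypes here is therefore one between these lines, and the knockout and other differences between the lines cannot be told apart. In WT FBS replicate 1, 1197 tested genes differed more than 2-fold from the average of its 2 fellow libraries, among them the imprinted genes Phlda2, Impact and Igf2r. That library held 11863803 gene counts, against 39034079 and 30238281 in its fellows. No such count was made for the other libraries.

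Imprinted genes are expressed mainly from the maternal or mainly from the paternal chromosome. The choice is set in each domain by a control region that carries DNA methylation from only one parent, and it is kept in early embryos by the zinc finger protein ZFP57 with TRIM28 and by the maintenance methyltransferase DNMT1. Several of these genes govern growth of the fetus and placenta, and in cultured mouse stem cells the domain of Dlk1 and Meg3 is known for lines in which its maternal RNAs are silenced. The counts do not separate the alleles, so every level below is the sum of both.

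CPM are read counts scaled to a common library size with TMM factors over the genes, so a log2 fold change on this relative scale is measured against the typical gene. Log2 fold changes are given ± SE, means of 3 libraries ± SD, and a gene was called at an edgeR adjusted p under 0.05 over all tested genes. In KO FBS against WT FBS cells, 14 imprinted genes were higher, 13 lower and 10 not called. The called share was 73.0% of the 37, beside 57.8% of all tested genes (28.4% higher and 29.4% lower). In KO paused against WT paused cells, 12 were higher, 11 lower and 14 not called, a share of 62.2% beside 51.8% of all genes (27.9% higher and 23.9% lower). On pausing, in KO paused against KO FBS cells 9 rose, 6 fell and 22 were not called, 40.5% beside 42.7% of all genes (23.3% higher and 19.4% lower). In WT paused against WT FBS cells 11 rose, 6 fell and 20 were not called, 45.9% beside 38.2% of all genes (18.0% higher and 20.2% lower), and 11 were called in all without WT FBS replicate 2. Median log2 fold changes of the imprinted genes were −0.04, 0.05, 0.05 and 0.18 in these 4 comparisons, against −0.04, 0.01, 0.03 and −0.02 over all genes. The comparisons share groups, WT FBS for example, and are not independent of each other.

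**Figure D1:**
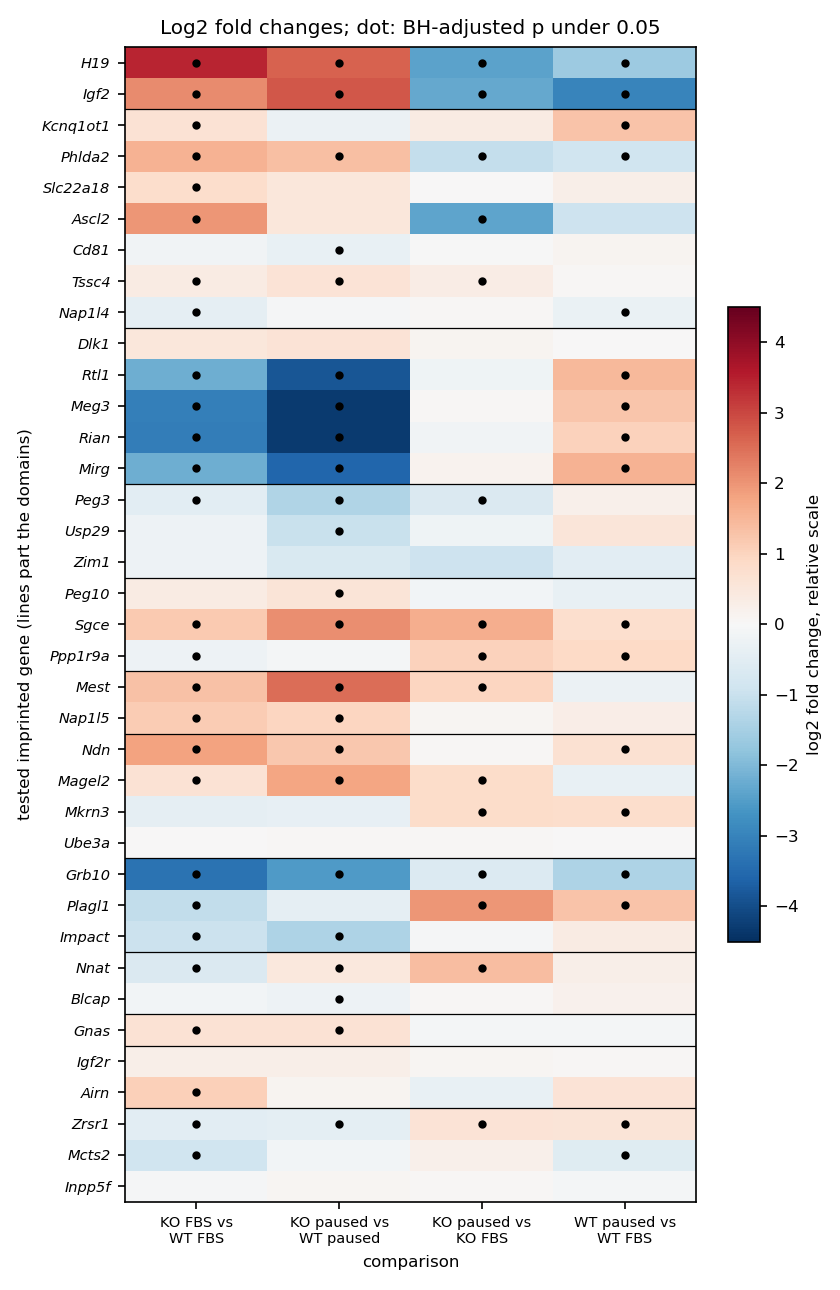
Log2 fold change on the relative scale (colour) of the 37 tested imprinted genes (rows, with lines between domains) in 4 comparisons (columns), with a dot where the edgeR adjusted p was under 0.05. H19 and Igf2 are higher in KO cells of both conditions and lower in paused cells of both genotypes, while Rtl1, Meg3, Rian and Mirg are lower in KO cells of both conditions.

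Coordinates are of GRCm38. H19 (chromosome 7, 142575529 to 142578143, minus strand) is a maternally expressed noncoding RNA, and Igf2 (chromosome 7, 142650766 to 142666816, minus strand) beside it encodes a paternally expressed fetal growth factor. Both genes were higher in KO than in WT cells and fell in paused cells of both genotypes. H19 stood at 13.4, 14.6 and 20.4 CPM in KO paused and 104, 70.1 and 83.1 CPM in KO FBS libraries. In WT libraries H19 had 2.24, 3.54 and 2.08 CPM in the paused and 7.03, 7.38 and 9.28 CPM in the FBS group. No library of one group overlapped another group, and the order was KO FBS, KO paused, WT FBS and WT paused. The log2 fold change was 3.43 ± 0.22 (edgeR adjusted p = 1.17e-07) in KO FBS against WT FBS and 2.67 ± 0.25 (edgeR adjusted p = 2.79e-06) in KO paused against WT paused. On pausing H19 changed by −2.40 ± 0.20 (edgeR adjusted p = 2.68e-06) in KO cells and −1.65 ± 0.26 (edgeR adjusted p = 0.000518) in WT cells. Igf2 stood at 6.36, 7.72 and 9.38 CPM in KO paused and 48.6, 33.8 and 35.4 CPM in KO FBS libraries. In WT libraries Igf2 had 0.876, 1.49 and 1.08 CPM in the paused and 8.86, 5.79 and 12.5 CPM in the FBS group. KO FBS libraries were the highest and WT paused libraries the lowest, while KO paused and WT FBS libraries overlapped. Igf2 was 2.12 ± 0.25 (edgeR adjusted p = 1.70e-05) in KO FBS against WT FBS and 2.78 ± 0.35 (edgeR adjusted p = 2.93e-05) in KO paused against WT paused on the log2 scale. Its change on pausing was −2.32 ± 0.25 in KO and −2.98 ± 0.35 in WT cells. The 49 nearest other tested genes had a median of 0.15 in KO FBS against WT FBS and 0.19 in KO paused against WT paused, smaller than the value of either gene.

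**Figure D2:**
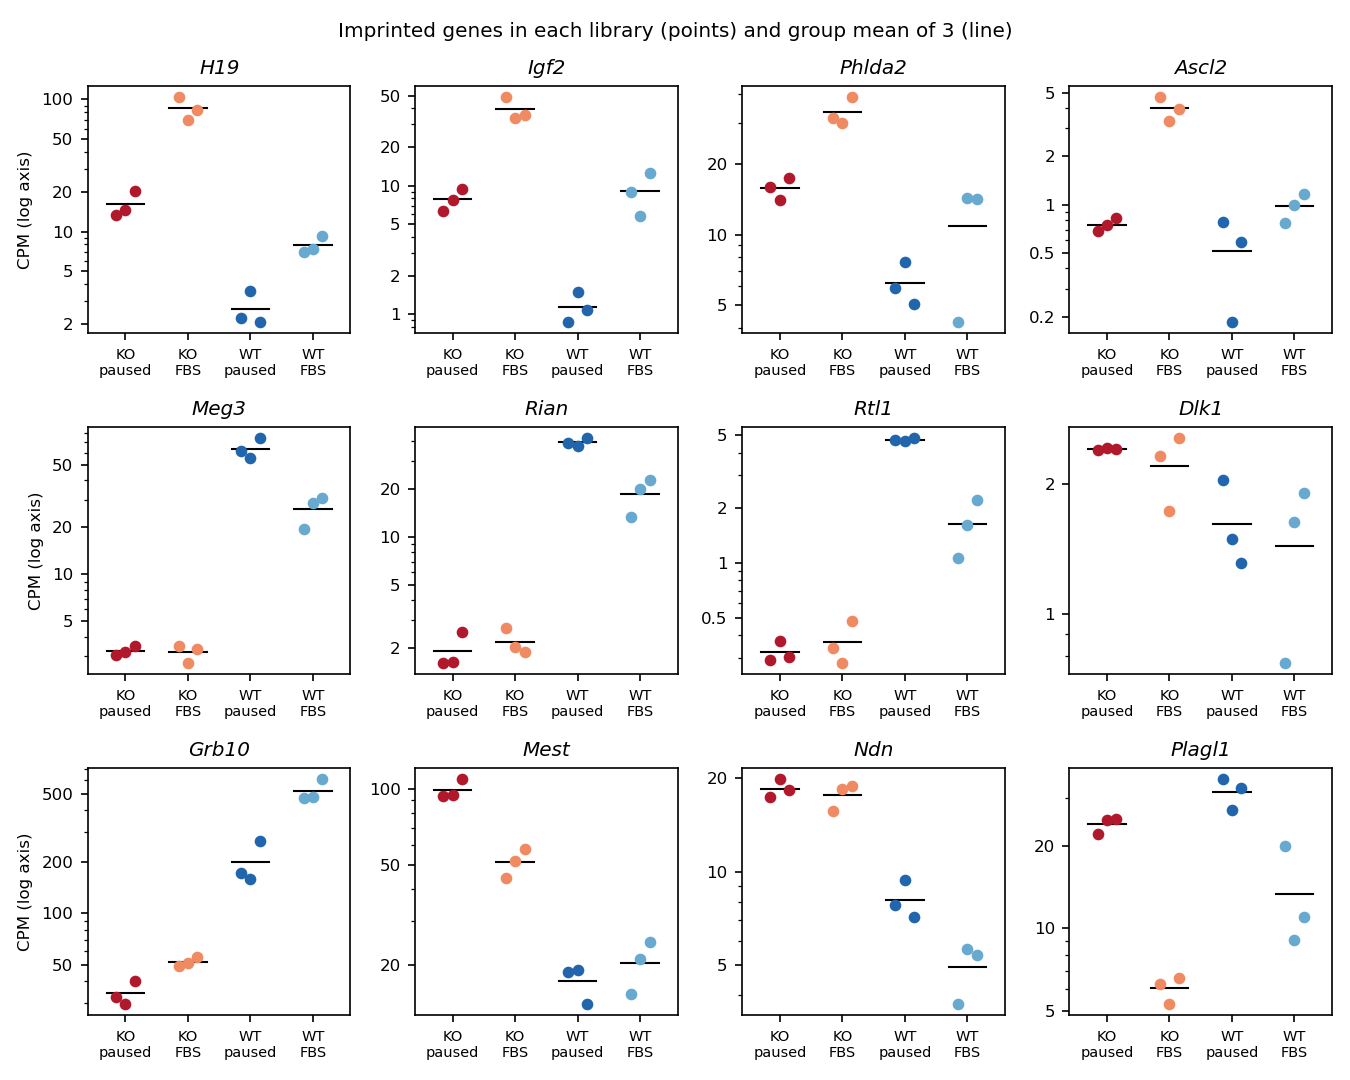
CPM on a log axis of 12 imprinted genes in each library (points) and as the mean of 3 (line) in KO paused, KO FBS, WT paused and WT FBS cells. H19 lies at 70.1 to 104 CPM in KO FBS and 2.08 to 3.54 CPM in WT paused libraries, Meg3 below 4 CPM in all KO libraries, and Dlk1 at 0.771 to 2.55 CPM over all groups.

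The neighbouring Kcnq1ot1 domain holds Kcnq1ot1, a paternally expressed antisense RNA that silences genes around it in cis, and 6 coding members here. In KO FBS against WT FBS cells 5 of the 7 were higher and 1 was lower, where 57.8% of all genes were called. There were 2 higher and 1 lower in KO paused against WT paused cells, a share below the 51.8% of all genes. Phlda2, which restrains placental growth, stood at 16.0, 14 and 17.5 CPM in KO paused and 31.5, 30.0 and 38.6 CPM in KO FBS libraries. In WT libraries Phlda2 had 5.94, 7.63 and 5.06 CPM in the paused and 4.24, 14.3 and 14.2 CPM in the FBS group. Each KO library lay above the WT libraries of the same condition, and WT FBS replicate 1 lay below its group's other libraries and all WT paused ones. Phlda2 was 1.55 ± 0.30 (edgeR adjusted p = 0.000797) in KO FBS against WT FBS and 1.37 ± 0.33 (edgeR adjusted p = 0.00386) in KO paused against WT paused. Phlda2 fell on pausing in KO cells (−1.07 ± 0.30, edgeR adjusted p = 0.0113), a call lost without KO paused replicate 2 (−0.99). In WT cells it fell too (−0.90 ± 0.33, edgeR adjusted p = 0.0496), a call lost without any one of the 11 libraries other than WT FBS replicate 1 (−1.06 to −0.69). Ascl2, a transcription factor of the trophoblast, stood at 0.685, 0.744 and 0.823 CPM in KO paused and 4.68, 3.32 and 3.96 CPM in KO FBS libraries. In WT libraries Ascl2 had 0.779, 0.186 and 0.587 CPM in the paused and 0.771, 0.998 and 1.16 CPM in the FBS group. KO FBS libraries were above all others, and the other groups lay close together. It was 1.97 ± 0.25 (edgeR adjusted p = 3.15e-05) in KO FBS against WT FBS, with 0.51 ± 0.36 (edgeR adjusted p = 0.254) in KO paused against WT paused, which was not called. It fell on pausing in KO cells (−2.38 ± 0.26, edgeR adjusted p = 1.92e-05). In WT cells the value was −0.93 ± 0.35 (edgeR adjusted p = 0.0526), and it was called when replicate 1 of WT FBS (−1.18) or of WT paused cells (−1.01) was left out.

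Kcnq1ot1 (chromosome 7, 143203458 to 143296549, minus strand) stood at 919, 771 and 744 CPM in KO paused and 789, 592 and 487 CPM in KO FBS libraries. In WT libraries Kcnq1ot1 had 1166, 775 and 973 CPM in the paused and 433, 359 and 400 CPM in the FBS group. WT FBS libraries were the lowest and did not overlap the other groups. It rose on pausing in WT cells (1.29 ± 0.18, edgeR adjusted p = 0.000260) and was higher in KO FBS than in WT FBS cells (0.65 ± 0.18, edgeR adjusted p = 0.00794). In KO cells pausing gave 0.38 ± 0.18 (edgeR adjusted p = 0.103), called without KO FBS replicate 1 (0.59). The row overlaps Kcnq1, the potassium channel gene on the other strand, which stood at 0.651 CPM or less in every library. The library kit marks strand, but whether the counting used it is not stated, so reads of genes that overlap on opposite strands cannot be told apart. Tssc4, a less studied coding gene of the domain, stood at 25.3, 30.1 and 30.2 CPM in KO paused and 19, 23.4 and 25.4 CPM in KO FBS libraries. In WT libraries Tssc4 had 16.8, 19.4 and 19.2 CPM in the paused and 16.2, 18.5 and 18.1 CPM in the FBS group. All KO paused libraries lay above all WT libraries, and Tssc4 was higher in KO paused than in WT paused cells (0.63 ± 0.13). Its call in KO FBS against WT FBS (0.36 ± 0.12) was lost without KO FBS replicate 2 or 3 (0.26 to 0.33), and that in KO paused against KO FBS cells (0.34 ± 0.12) without any one of the 7 libraries other than KO paused replicate 1, KO FBS replicate 3, WT paused replicate 1 or WT FBS replicate 1 or 2 (0.23 to 0.36). Nap1l4, of a family of histone chaperones, stood at 110, 116 and 123 CPM in KO paused and 108, 108 and 120 CPM in KO FBS libraries. In WT libraries Nap1l4 had 112, 122 and 128 CPM in the paused and 131, 161 and 150 CPM in the FBS group. Nap1l4 was lower in KO FBS than in WT FBS cells (−0.39 ± 0.09, edgeR adjusted p = 0.00322), and its fall on pausing in WT cells (−0.29 ± 0.09) was lost without WT paused replicate 1 or 2 or WT FBS replicate 2 or 3 (−0.29 to −0.22). The transporter gene Slc22a18 (1.60 ± 0.319 CPM in KO paused, 1.62 ± 0.284 CPM in KO FBS, 1.14 ± 0.216 CPM in WT paused and 0.870 ± 0.350 CPM in WT FBS cells) was higher in KO FBS than in WT FBS cells (0.78 ± 0.27), lost without KO FBS replicate 2 or 3 or WT FBS replicate 2 (0.71 to 0.81). The tetraspanin gene Cd81 (72.0 ± 5.46 CPM in KO paused, 73.5 ± 5.13 CPM in KO FBS, 90.2 ± 3.32 CPM in WT paused and 81.5 ± 11.5 CPM in WT FBS cells) was lower in KO paused than in WT paused cells (−0.33 ± 0.11), lost without KO paused replicate 2 or 3 or WT paused replicate 1 or 3 (−0.34 to −0.27), and in KO FBS against WT FBS cells it was called without WT FBS replicate 1 (−0.26) and not with all libraries.

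The summed markers of trophoblast, like H19, Igf2, Phlda2 and Ascl2, were highest in KO FBS libraries. Of the 10 markers 9 were tested. In KO FBS against WT FBS cells 6 were higher and 0 lower, beside 28.4% and 29.4% of all genes. In KO paused against WT paused cells 3 were higher and 1 lower, beside 27.9% and 23.9%. On pausing 0 rose and 9 fell in KO cells, beside 23.3% and 19.4%. In WT cells 1 rose and 4 fell, beside 18.0% and 20.2%. Their summed level was 65.9 to 77.0 CPM in KO paused and 211 to 270 CPM in KO FBS libraries, against 51.4 to 68.0 CPM in WT paused and 61.6 to 97.8 CPM in WT FBS libraries, and no marker was at 0 in a whole group. Outside KO FBS these sums overlapped between groups. There some groups of Igf2, Phlda2 and Ascl2 also overlapped, and those of H19 did not. The defining marker Elf5 lay at 0 to 0.0305 CPM in KO paused and 0.212 to 0.472 CPM in KO FBS libraries, against 0 to 0.0452 CPM in WT paused and 0 to 0.0285 CPM in WT FBS libraries. Cdx2 overlapped between KO FBS (0.639 to 1.89 CPM) and WT FBS libraries (0.578 to 1.48 CPM). So did Eomes (4.94 to 6.4 and 1.83 to 9.55 CPM). The lists that follow stand beside shares of all genes called of 57.8% in KO FBS against WT FBS and 51.8% in KO paused against WT paused cells. On pausing these shares were 42.7% in KO and 38.2% in WT cells. Feeder fibroblast markers, 5 of 8 tested, were higher in 4 and lower in 0 cases in KO against WT cells of both conditions and lower in 4 cases on pausing in each genotype, with 1 riser in KO cells. They summed to 7.95 to 9.78 CPM in KO paused and 17.8 to 21.5 CPM in KO FBS libraries, against 1.45 to 2.43 CPM in WT paused and 4.82 to 8.33 CPM in WT FBS libraries. Among them S100a4 was at 0 in KO paused, Lum, Postn and S100a4 in WT paused and Lum in WT FBS cells. Extraembryonic endoderm markers, 11 of 12 tested, were higher in 2 and lower in 7 cases in KO FBS against WT FBS cells and higher in 3 and lower in 4 in KO paused against WT paused cells. On pausing 1 rose and 5 fell in KO cells and 0 rose and 11 fell in WT cells, and the difference between both effects was called higher in KO cells for 6 and lower for 0. Over all genes 9.61% were higher and 8.26% lower in this difference. Trophoblast markers had 0 higher and 4 lower, neural ones 3 and 0, fibroblast ones 1 and 0, and mesoderm ones 0 and 0. The endoderm markers summed to 265 to 270 CPM in KO paused and 227 to 234 CPM in KO FBS libraries, against 113 to 150 CPM in WT paused and 238 to 367 CPM in WT FBS libraries, with none at 0. Of these sums Col4a1 made up 160 to 165 CPM in KO paused and 20.3 to 33.3 CPM in WT paused libraries. Gata4 (0.233 to 0.274 against 0.682 to 1.22 CPM) and Sox7 (0.93 to 1.17 against 2.98 to 4.16 CPM) went the other way in these groups. Of 5 tested neural markers 3 were higher and 1 lower in KO FBS against WT FBS cells and 4 higher and 1 lower in KO paused against WT paused cells. On pausing 3 of them rose and 1 fell in KO cells, and 1 rose and 1 fell in WT cells. Tubb3 among them lay at 125 to 139 CPM in KO paused and 45.9 to 66.3 CPM in KO FBS libraries, against 54.2 to 67.5 CPM in WT paused and 33.3 to 65.1 CPM in WT FBS libraries. Sox1 went the other way between genotypes, at 13.4 to 24.6 CPM in KO paused and 0.447 to 0.848 CPM in KO FBS libraries. In WT libraries Sox1 had 106 to 142 CPM in the paused and 12.8 to 22.2 CPM in the FBS group. The neural sum was 208 to 236 CPM in KO paused and 123 to 151 CPM in KO FBS libraries. In WT libraries it was 178 to 231 CPM in the paused and 68.0 to 138 CPM in the FBS group. The sums of the genotypes overlapped in both conditions. Mesoderm markers, 2 of 5 tested, were higher in 1 case in KO against WT cells of both conditions, and 1 fell on pausing in WT cells. They summed to 14.5 to 18.5 CPM in KO paused and 13.3 to 20.5 CPM in KO FBS libraries, against 0.858 to 1.58 CPM in WT paused and 1.64 to 3.90 CPM in WT FBS libraries, with Hand2 at 0 in WT paused cells. Most of the KO sums was 1 gene, Kdr, at 13.5 to 17.3 CPM in KO paused and 12.4 to 19.8 CPM in KO FBS libraries. The marker T overlapped between genotypes, at 0.539 to 0.579 CPM in KO paused and 0.353 to 0.575 CPM in KO FBS libraries. In WT libraries T had 0.0974 to 1.02 CPM in the paused and 0.385 to 1.72 CPM in the FBS group. Of the 8 embryonic stem cell markers 0 were higher and 6 lower in KO against WT cells of both conditions. On pausing 5 of them rose and 1 fell in KO cells, and 2 rose and 0 fell in WT cells. Tfcp2l1 lay at 304 to 403 CPM in KO paused and 1404 to 1521 CPM in WT paused libraries, while Sox2 overlapped (598 to 695 and 574 to 663 CPM). The part of these cell types in the imprinted genes' levels was not tested, and in bulk RNA fewer cells of a type and less RNA per cell cannot be told apart.

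The Dlk1 and Meg3 domain on chromosome 12 expresses the noncoding RNAs Meg3, Rian (a host of small nucleolar RNAs) and Mirg (a host of microRNAs) from the maternal chromosome, and the coding genes Dlk1 and Rtl1 from the paternal one. Rian, Meg3, Mirg and Rtl1 were lower in KO than in WT cells of both conditions and rose on pausing in WT cells. Meg3 and Dlk1 lie in the same domain, and their windows of 250 bases before the annotated start (RefSeq, GRCm38.p6, plus strand) are shown because Meg3 was called lower in KO cells and Dlk1 was not called. Capitals mark TGCCGC or its reverse complement GCGGCA, the hexamer that ZFP57 binds when methylated. Meg3 lies at chr12:109540746-109540995 and Dlk1 at chr12:109452573-109452822.
Meg3: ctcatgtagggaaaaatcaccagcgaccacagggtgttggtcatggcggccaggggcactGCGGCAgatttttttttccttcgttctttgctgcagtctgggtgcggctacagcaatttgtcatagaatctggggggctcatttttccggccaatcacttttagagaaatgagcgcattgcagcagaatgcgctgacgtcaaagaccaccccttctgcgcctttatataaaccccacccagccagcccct
Dlk1: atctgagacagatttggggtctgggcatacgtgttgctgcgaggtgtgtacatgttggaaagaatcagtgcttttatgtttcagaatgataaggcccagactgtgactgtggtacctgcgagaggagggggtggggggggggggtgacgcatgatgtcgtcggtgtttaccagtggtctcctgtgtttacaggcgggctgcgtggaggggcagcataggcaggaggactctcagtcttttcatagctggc
The window of Meg3 held 10 CpG and 1 match, and that of Dlk1 held 8 CpG and 0. Taking for each gene the window with the most CpG, 6 of the 32 imprinted genes with a window (18.8%) held a match on either strand, against 2472 of all 27025 genes (9.1%), with a median of 12 CpG in the imprinted windows and 6 in all. A match is a description of these letters and not a bound site.

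Meg3 (chromosome 12, 109541001 to 109571726, plus strand) stood at 3.04, 3.21 and 3.50 CPM in KO paused and 3.48, 2.72 and 3.32 CPM in KO FBS libraries. In WT libraries Meg3 had 61.6, 55.3 and 74.3 CPM in the paused and 19.5, 28.8 and 30.8 CPM in the FBS group. All 6 KO libraries lay below all WT libraries, and WT paused lay above WT FBS. Its log2 fold change was −3.07 ± 0.18 (edgeR adjusted p = 9.28e-08) in KO FBS against WT FBS and −4.29 ± 0.19 (edgeR adjusted p = 1.06e-08) in KO paused against WT paused. Pausing gave 0.04 ± 0.20 (edgeR adjusted p = 0.876) in KO cells and raised it by 1.26 ± 0.16 (edgeR adjusted p = 0.000150) in WT cells. Rian (chromosome 12, 109603940 to 109661716, plus strand) stood at 1.62, 1.63 and 2.53 CPM in KO paused and 2.66, 2.05 and 1.88 CPM in KO FBS libraries. In WT libraries Rian had 38.8, 37.1 and 41.6 CPM in the paused and 13.3, 20.0 and 22.7 CPM in the FBS group. The groups fell in the same pattern as for Meg3, with values of −3.11 ± 0.22 in KO FBS against WT FBS, −4.31 ± 0.23 in KO paused against WT paused, −0.15 ± 0.25 on pausing in KO and 1.05 ± 0.19 on pausing in WT cells. Mirg stood at 0.147, 0.186 and 0.152 CPM in KO paused and 0.129, 0.106 and 0.192 CPM in KO FBS libraries. In WT libraries Mirg had 1.36, 2.33 and 2.17 CPM in the paused and 0.578, 0.627 and 0.773 CPM in the FBS group. Mirg was lower in KO FBS than in WT FBS (−2.18 ± 0.35, edgeR adjusted p = 0.000191) and in KO paused than in WT paused cells (−3.58 ± 0.32, edgeR adjusted p = 2.01e-06), and rose on pausing in WT cells (1.55 ± 0.26, edgeR adjusted p = 0.000803). Rtl1, a gene derived from a retrotransposon that the placenta requires, stood at 0.294, 0.372 and 0.305 CPM in KO paused and 0.343, 0.283 and 0.479 CPM in KO FBS libraries. In WT libraries Rtl1 had 4.67, 4.65 and 4.79 CPM in the paused and 1.06, 1.60 and 2.21 CPM in the FBS group. It was −2.18 ± 0.28 (edgeR adjusted p = 3.45e-05) in KO FBS against WT FBS, −3.85 ± 0.28 (edgeR adjusted p = 4.15e-07) in KO paused against WT paused and 1.46 ± 0.23 (edgeR adjusted p = 0.000520) on pausing in WT cells. The Rtl1 row is overlapped by microRNA precursors of the other strand, which belong to the maternal transcripts. Dlk1, a transmembrane relative of Notch ligands, stood at 2.41 ± 0.0101 CPM in KO paused, 2.20 ± 0.424 CPM in KO FBS, 1.61 ± 0.383 CPM in WT paused and 1.43 ± 0.588 CPM in WT FBS cells. It was not called in any comparison on the relative scale, at 0.52 ± 0.26 (edgeR adjusted p = 0.104) in KO FBS against WT FBS and 0.62 ± 0.28 (edgeR adjusted p = 0.0823) in KO paused against WT paused cells, the second being called without WT FBS replicate 1 (0.63). The 49 neighbours of this domain had medians of −0.03 and 0.22 in the 2 genotype comparisons.

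Grb10 (chromosome 11, 11930508 to 12038683, minus strand) encodes an adaptor that dampens insulin and IGF receptor signalling and is itself a target of mTOR complex 1. It was lower in KO than in WT cells of both conditions and fell on pausing in both genotypes. Grb10 stood at 32.5, 29.6 and 40.4 CPM in KO paused and 49.5, 50.9 and 55.7 CPM in KO FBS libraries. In WT libraries Grb10 had 172, 158 and 265 CPM in the paused and 472, 476 and 606 CPM in the FBS group. No group overlapped another. The log2 fold change was −3.32 ± 0.20 (edgeR adjusted p = 8.84e-08) in KO FBS against WT FBS and −2.54 ± 0.19 (edgeR adjusted p = 5.76e-07) in KO paused against WT paused, where the 49 neighbours had medians of −0.26 and −0.09. On pausing it fell in KO cells (−0.61 ± 0.19, edgeR adjusted p = 0.0196) and in WT cells (−1.38 ± 0.18, edgeR adjusted p = 0.000183), the call in KO cells being lost without KO paused replicate 1 or 2 or KO FBS replicate 3 (−0.57 to −0.51). Per kilobase of annotated exon Grb10 ranked 20 of the 38 imprinted genes in KO paused (3.76 CPM per kb) and 17 in KO FBS cells (5.72 CPM per kb), against 6 in WT paused (21.8 CPM per kb) and 1 in WT FBS cells (57.0 CPM per kb). Cobl, the imprinted gene beside Grb10 that encodes an actin nucleator, was also lower in KO FBS than in WT FBS (−2.56 ± 0.11) and in KO paused than in WT paused cells (−2.59 ± 0.10). It rose on pausing in KO (1.10 ± 0.10) and WT cells (1.13 ± 0.10).

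On chromosome 6, Peg10, Sgce and Ppp1r9a form a cluster near the centromere, and Mest and Nap1l5 lie apart from it. Mest (chromosome 6, 30723547 to 30748465, plus strand), of the alpha/beta hydrolase fold family, stood at 93.7, 94.1 and 109 CPM in KO paused and 44.3, 51.7 and 57.9 CPM in KO FBS libraries. In WT libraries Mest had 18.9, 19.2 and 14.1 CPM in the paused and 15.4, 21.2 and 24.8 CPM in the FBS group. All KO libraries lay above all WT libraries, and KO paused above KO FBS. Mest was 1.31 ± 0.17 (edgeR adjusted p = 3.23e-05) in KO FBS against WT FBS and 2.52 ± 0.18 (edgeR adjusted p = 2.88e-07) in KO paused against WT paused, with neighbour medians of 0.12 and 0.06. It rose on pausing in KO cells (0.95 ± 0.16, edgeR adjusted p = 0.000593). In WT cells the value was −0.27 ± 0.18 (edgeR adjusted p = 0.252), and it was called without WT FBS replicate 1 (−0.44). Sgce, which encodes epsilon-sarcoglycan, stood at 11.8, 13 and 11.2 CPM in KO paused and 4.21, 3.71 and 3.61 CPM in KO FBS libraries. In WT libraries Sgce had 3.12, 3.07 and 2.39 CPM in the paused and 2.31, 1.54 and 1.48 CPM in the FBS group. KO paused libraries were the highest, and no group overlapped another. Sgce was 1.19 ± 0.18 (edgeR adjusted p = 0.000139) in KO FBS against WT FBS, where its 49 neighbours had a median of 0.89, and 2.09 ± 0.18 (edgeR adjusted p = 1.24e-06) in KO paused against WT paused, where they had 0.46. The typical gene of this stretch was thus also higher in KO FBS than in WT FBS cells. Pausing raised Sgce by 1.64 ± 0.16 (edgeR adjusted p = 7.67e-06) in KO cells and by 0.74 ± 0.20 (edgeR adjusted p = 0.0128) in WT cells, the second lost without WT FBS replicate 2 or 3 (0.63 to 0.65).

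Peg10, a gene derived from a retrotransposon and needed for the placenta, stood at 298 ± 10.3 CPM in KO paused, 327 ± 59.9 CPM in KO FBS, 200 ± 34.2 CPM in WT paused and 255 ± 57.5 CPM in WT FBS cells (SD, n = 3 each). It was higher in KO paused than in WT paused cells (0.57 ± 0.17, edgeR adjusted p = 0.0144), lost without WT paused replicate 3 (0.46), and its neighbours had a median of 0.46. In KO FBS against WT FBS cells it was 0.36 ± 0.17 and not called, but was called without WT FBS replicate 3 (0.53). In WT cells its pausing value of −0.35 ± 0.17 was not called, but was without WT FBS replicate 1 (−0.51). Ppp1r9a, which encodes the actin-binding protein neurabin, stood at 118, 118 and 113 CPM in KO paused and 59.1, 59.4 and 52.4 CPM in KO FBS libraries. In WT libraries Ppp1r9a had 135, 109 and 127 CPM in the paused and 65.1, 68.3 and 68.5 CPM in the FBS group. It rose on pausing in KO (1.03 ± 0.09, edgeR adjusted p = 3.50e-06) and WT cells (0.88 ± 0.09, edgeR adjusted p = 3.07e-05), with every paused library above every FBS library. Its value in KO FBS against WT FBS cells (−0.24 ± 0.09) lost its call without KO paused replicate 2, KO FBS replicate 2 or 3 or WT FBS replicate 2 or 3 (−0.27 to −0.18). Nap1l5, a retrogene, stood at 1.13, 0.977 and 1.61 CPM in KO paused and 1.29, 1.02 and 1.28 CPM in KO FBS libraries. In WT libraries Nap1l5 had 0.584, 0.745 and 0.632 CPM in the paused and 0.578, 0.485 and 0.562 CPM in the FBS group. It was higher in KO FBS than in WT FBS cells (1.16 ± 0.26, edgeR adjusted p = 0.00194) and in KO paused than in WT paused cells (0.95 ± 0.27, edgeR adjusted p = 0.0112), the second lost without KO paused replicate 3 or WT paused replicate 3 (0.69 to 0.92).

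The windows of Mest and Grb10 are shown because of the 9 single genes these had the largest differences between the genotypes in both conditions, in opposite directions. Each is the window of 250 bases before a start with the most CpG, from RefSeq on GRCm38.p6, at chr6:30737800-30738049 on the plus strand and chr11:12037421-12037670 on the minus strand, with the same hexamer in capitals.
Mest: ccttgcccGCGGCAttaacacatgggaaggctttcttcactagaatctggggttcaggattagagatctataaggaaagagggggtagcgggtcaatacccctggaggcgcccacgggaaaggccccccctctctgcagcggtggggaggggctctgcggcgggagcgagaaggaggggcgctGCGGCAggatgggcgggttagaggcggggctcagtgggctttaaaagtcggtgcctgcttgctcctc
Grb10: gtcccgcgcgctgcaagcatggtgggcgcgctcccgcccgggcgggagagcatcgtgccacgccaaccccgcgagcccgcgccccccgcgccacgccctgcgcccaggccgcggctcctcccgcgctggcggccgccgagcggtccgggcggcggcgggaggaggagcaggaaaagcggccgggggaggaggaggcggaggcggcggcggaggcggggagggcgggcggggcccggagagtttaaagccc
The Mest window held 14 CpG and 2 matches, and the Grb10 window 40 CpG and 0.

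**Figure D3:**
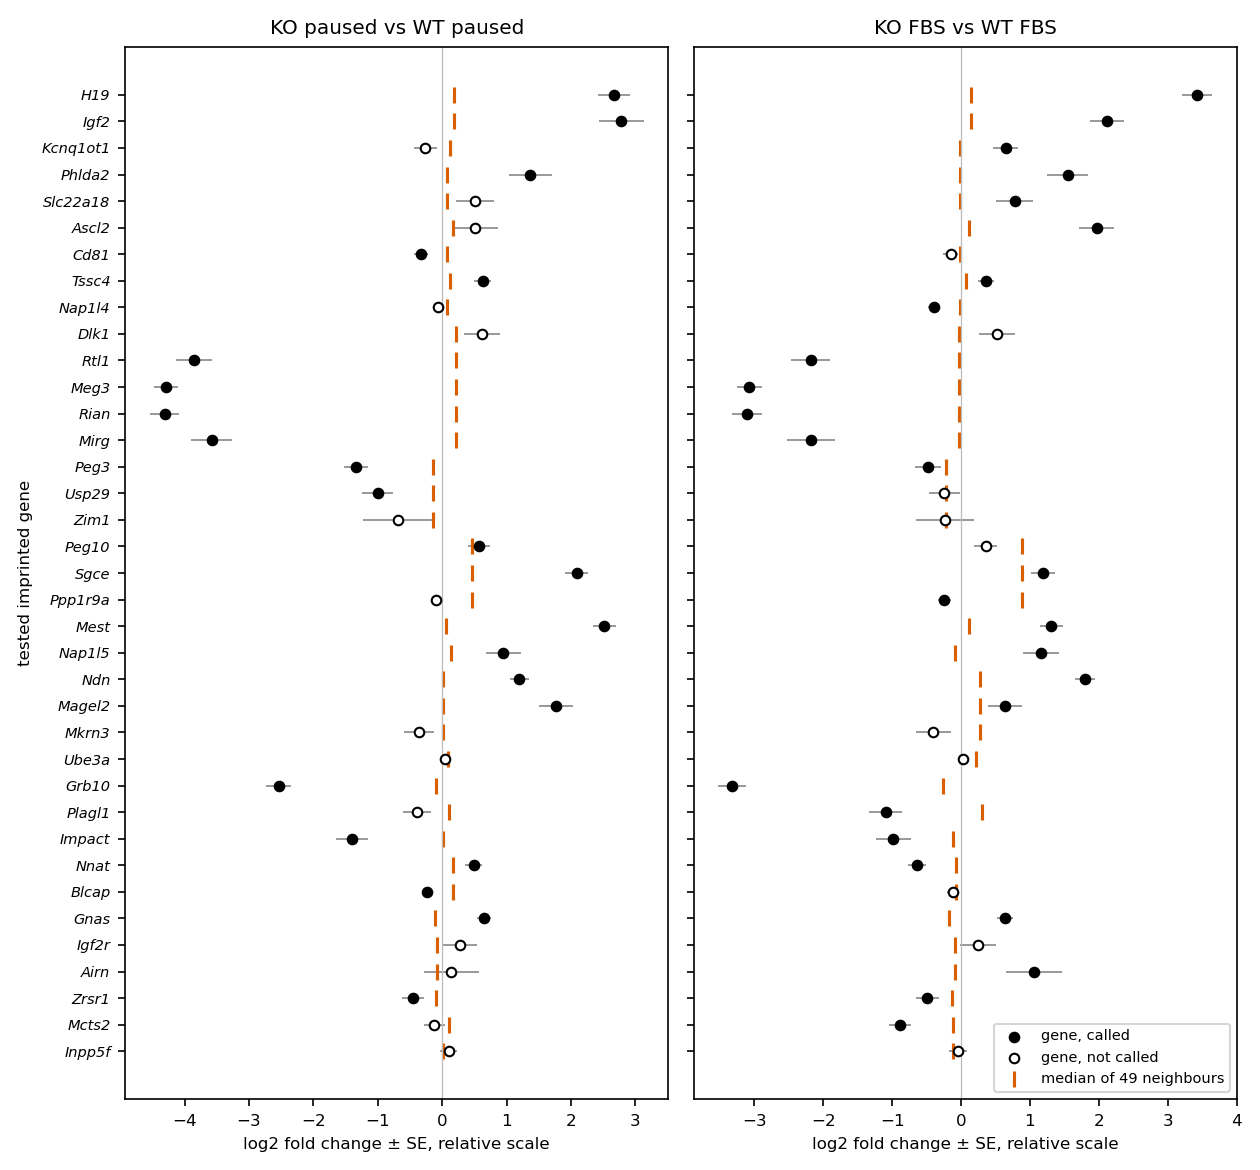
Log2 fold change ± SE (points; filled where called) of the 37 tested imprinted genes in KO paused against WT paused (left) and KO FBS against WT FBS cells (right), with the median of their 49 nearest tested neighbours (orange ticks). Most ticks lie near 0, and those of Peg10, Sgce and Ppp1r9a lie at 0.46 (left) and 0.89 (right).

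Peg3 (chromosome 7, 6703892 to 6730431, minus strand) encodes a paternally expressed zinc finger protein, and Usp29 and Zim1 lie beside it. Peg3 stood at 141, 147 and 168 CPM in KO paused and 220, 241 and 251 CPM in KO FBS libraries. In WT libraries Peg3 had 319, 366 and 470 CPM in the paused and 224, 389 and 381 CPM in the FBS group. KO paused libraries were the lowest and did not overlap the other groups, while KO FBS and WT FBS libraries overlapped. Peg3 was −1.34 ± 0.19 (edgeR adjusted p = 9.43e-05) in KO paused against WT paused cells. Its fall on pausing in KO cells (−0.64 ± 0.19, edgeR adjusted p = 0.0167) was lost without KO paused replicate 1 or 2 or KO FBS replicate 3 (−0.62 to −0.59). Its value in KO FBS against WT FBS (−0.48 ± 0.19, edgeR adjusted p = 0.0445) was lost without any one of the 9 libraries other than WT paused replicate 1 or 3 or WT FBS replicate 1 (−0.52 to −0.35). Usp29, of a family of deubiquitinases, stood at 1.22, 1.81 and 2.44 CPM in KO paused and 1.89, 2.12 and 2.36 CPM in KO FBS libraries. In WT libraries Usp29 had 3.31, 3.63 and 4.11 CPM in the paused and 2.22, 2.25 and 3.02 CPM in the FBS group. It was lower in KO paused than in WT paused cells (−1.0 ± 0.24, edgeR adjusted p = 0.00393), and its libraries overlapped in KO FBS and WT FBS cells. Zim1, a zinc finger gene expressed from the maternal chromosome, stood at 0.339 ± 0.247 CPM in KO paused, 0.642 ± 0.110 CPM in KO FBS, 0.495 ± 0.197 CPM in WT paused and 0.691 ± 0.339 CPM in WT FBS cells and was not called in any comparison on the relative scale.

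In the Snrpn and Ube3a domain of chromosome 7, 2 of the 4 tested genes were higher in KO than in WT cells in each condition and none was lower, a share near the 57.8% (FBS) and 51.8% (paused) of all genes. Ndn, which encodes the growth-restraining protein necdin, stood at 17.3, 19.8 and 18.3 CPM in KO paused and 15.6, 18.4 and 18.8 CPM in KO FBS libraries. In WT libraries Ndn had 7.79, 9.40 and 7.14 CPM in the paused and 3.76, 5.64 and 5.38 CPM in the FBS group. Both KO groups lay above both WT groups, and WT paused above WT FBS. Ndn was 1.80 ± 0.15 (edgeR adjusted p = 1.13e-06) in KO FBS against WT FBS and 1.20 ± 0.15 (edgeR adjusted p = 3.69e-05) in KO paused against WT paused, and rose on pausing in WT cells (0.67 ± 0.16, edgeR adjusted p = 0.00711). Magel2, a relative of necdin that works with ubiquitin ligases, stood at 8.57, 8.79 and 8.71 CPM in KO paused and 4.59, 5.19 and 5.04 CPM in KO FBS libraries. In WT libraries Magel2 had 2.92, 1.68 and 2.89 CPM in the paused and 1.54, 3.48 and 3.97 CPM in the FBS group. KO paused libraries were the highest. Magel2 was 1.77 ± 0.26 (edgeR adjusted p = 0.000118) in KO paused against WT paused and rose on pausing in KO cells (0.81 ± 0.23, edgeR adjusted p = 0.0138). Its value in KO FBS against WT FBS (0.64 ± 0.25, edgeR adjusted p = 0.0410) was lost without any one of the 8 libraries other than WT paused replicate 2 or 3 or WT FBS replicate 1 or 3 (0.61 to 0.71), and in WT cells its pausing value of −0.32 ± 0.28 was not called, but was without WT FBS replicate 1 (−0.53). Mkrn3, a RING finger gene, stood at 6.64 ± 0.677 CPM in KO paused, 3.73 ± 0.157 CPM in KO FBS, 8.62 ± 1.23 CPM in WT paused and 5.20 ± 2.44 CPM in WT FBS cells. It rose on pausing in KO cells (0.84 ± 0.24, edgeR adjusted p = 0.0146), lost without KO paused replicate 3 or KO FBS replicate 3 (0.78 to 0.81), and in WT cells (0.80 ± 0.25, edgeR adjusted p = 0.0241), lost without WT paused replicate 1 or WT FBS replicate 2 or 3 (0.59 to 0.68). In KO paused against WT paused cells it was −0.36 ± 0.24 and not called, but was called without WT FBS replicate 1 (−0.35). Ube3a, a ubiquitin ligase that is imprinted in neurons, stood at 155 ± 2.12 CPM in KO paused, 149 ± 7.59 CPM in KO FBS, 149 ± 10.6 CPM in WT paused and 146 ± 10.4 CPM in WT FBS cells and was not called in any comparison on the relative scale. Snrpn, a spliceosome protein gene, had 6 counts in KO paused and 16 in KO FBS cells, against 1 in WT paused and 6 in WT FBS cells, summed over 3 libraries each. The ratio of scaled counts was 2.38 in KO FBS over WT FBS (95% interval 0.883 to 7.42) and 3.46 in KO paused over WT paused (0.420 to 159), which covers counting error only. Its row overlaps that of Snurf on the same strand, which held 0 counts in all libraries, and the fate of reads shared by both rows was not tested.

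Plagl1 (chromosome 10, 13060504 to 13131694, plus strand), a zinc finger transcription factor, rose on pausing in both genotypes. It stood at 22.1, 24.9 and 25 CPM in KO paused and 6.27, 5.30 and 6.58 CPM in KO FBS libraries. In WT libraries Plagl1 had 35.0, 27.0 and 32.5 CPM in the paused and 20.0, 9.04 and 11 CPM in the FBS group. KO FBS libraries were the lowest, and no paused library overlapped an FBS library of any genotype. The change on pausing was 1.99 ± 0.23 (edgeR adjusted p = 3.66e-05) in KO and 1.29 ± 0.23 (edgeR adjusted p = 0.00124) in WT cells. Plagl1 was lower in KO FBS than in WT FBS cells (−1.09 ± 0.24, edgeR adjusted p = 0.00174), and was −0.39 ± 0.22 and not called in KO paused against WT paused cells, but was called without WT FBS replicate 1 (−0.39).

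Of the genes on chromosome 2, Nnat, which encodes a small membrane protein of the nervous system, stood at 23.3, 22.5 and 23.0 CPM in KO paused and 9.49, 8.65 and 7.92 CPM in KO FBS libraries. In WT libraries Nnat had 16.2, 16.7 and 16.2 CPM in the paused and 10.9, 13.3 and 16.0 CPM in the FBS group. KO paused libraries were the highest and KO FBS libraries the lowest. Nnat rose on pausing in KO cells (1.40 ± 0.13, edgeR adjusted p = 4.71e-06). In WT cells the value was 0.27 ± 0.13 (edgeR adjusted p = 0.122), called without WT FBS replicate 3 (0.41). It was lower in KO FBS than in WT FBS (−0.64 ± 0.13, edgeR adjusted p = 0.000985) and higher in KO paused than in WT paused cells (0.49 ± 0.13, edgeR adjusted p = 0.00630). The gene lies within Blcap, which is on the other strand and stood at 23.9 ± 1.10 CPM in KO paused, 22.9 ± 1.5 CPM in KO FBS, 28.2 ± 0.227 CPM in WT paused and 24.9 ± 0.487 CPM in WT FBS cells. Blcap was lower in KO paused than in WT paused cells (−0.24 ± 0.08), lost without KO paused replicate 2 or 3 or WT paused replicate 1, 2 or 3 (−0.25 to −0.21). Gnas, which encodes the stimulatory G protein subunit, stood at 179, 175 and 197 CPM in KO paused and 176, 196 and 214 CPM in KO FBS libraries. In WT libraries Gnas had 104, 114 and 132 CPM in the paused and 119, 122 and 135 CPM in the FBS group. All KO libraries lay above all WT libraries, with 0.64 ± 0.11 (edgeR adjusted p = 0.000244) in KO FBS against WT FBS and 0.65 ± 0.11 (edgeR adjusted p = 0.000243) in KO paused against WT paused. Mcts2, a retrogene inside H13 on the same strand, stood at 9.35, 10.0 and 9.90 CPM in KO paused and 7.43, 9.64 and 8.08 CPM in KO FBS libraries. In WT libraries Mcts2 had 12.6, 9.03 and 10.4 CPM in the paused and 11.9, 18.0 and 16.1 CPM in the FBS group. Mcts2 was lower in KO FBS than in WT FBS cells (−0.89 ± 0.16, edgeR adjusted p = 0.000516), where H13 was higher (0.82 ± 0.09). Its fall on pausing in WT cells (−0.55 ± 0.17) was lost without WT paused replicate 2 or 3 or WT FBS replicate 2 or 3 (−0.52 to −0.42).

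Impact on chromosome 18, an inhibitor of the amino acid sensor GCN2, stood at 73.0, 67.5 and 64.3 CPM in KO paused and 70.6, 68.6 and 74.2 CPM in KO FBS libraries. In WT libraries Impact had 180, 183 and 177 CPM in the paused and 228, 99.5 and 96.1 CPM in the FBS group. Impact was lower in KO FBS than in WT FBS (−0.98 ± 0.25, edgeR adjusted p = 0.00513) and in KO paused than in WT paused cells (−1.40 ± 0.25, edgeR adjusted p = 0.000572). WT FBS replicate 1 was more than 2-fold above its fellow libraries, and without that library Impact also rose on pausing in WT cells (0.88, against 0.36 ± 0.25 and not called with it). Igf2r, the receptor that clears IGF2, stood at 200 ± 8.36 CPM in KO paused, 187 ± 2.22 CPM in KO FBS, 165 ± 0.485 CPM in WT paused and 158 ± 89.2 CPM in WT FBS cells, and its WT FBS libraries ran from 104 to 261 CPM. With all libraries it was not called in any comparison on the relative scale, and without WT FBS replicate 1 it was called at 0.81 in KO FBS against WT FBS, 0.28 in KO paused against WT paused and 0.62 on pausing in WT cells. Airn, the antisense RNA that silences Igf2r on the paternal chromosome, stood at 0.545 ± 0.134 CPM in KO paused, 0.703 ± 0.172 CPM in KO FBS, 0.485 ± 0.263 CPM in WT paused and 0.282 ± 0.163 CPM in WT FBS cells. Its call in KO FBS against WT FBS (1.06 ± 0.40, edgeR adjusted p = 0.0373) did not hold without KO FBS replicate 1, 2 or 3 or WT FBS replicate 3 (0.86 to 1.17), and Airn and Igf2r overlap on opposite strands.

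Zrsr1, a splicing factor retrogene, rose on pausing by 0.61 ± 0.17 (edgeR adjusted p = 0.0112) in KO and 0.57 ± 0.17 (edgeR adjusted p = 0.0195) in WT cells, at 17.2 ± 1.65 CPM in KO paused, 11.3 ± 2.00 CPM in KO FBS, 23.6 ± 3.58 CPM in WT paused and 16.1 ± 3.12 CPM in WT FBS cells. The call in KO cells was lost without KO FBS replicate 3 (0.50) and that in WT cells without WT paused replicate 1 or WT FBS replicate 2 or 3 (0.45 to 0.49). Zrsr1 was lower in KO FBS than in WT FBS cells (−0.49 ± 0.17), lost without KO FBS replicate 2 or 3 (−0.46 to −0.38), and in KO paused than in WT paused cells (−0.45 ± 0.17), lost without KO paused replicate 2 or 3, KO FBS replicate 2 or WT paused replicate 1 or 2 (−0.45 to −0.33). Inpp5f, a phosphoinositide phosphatase, stood at 29.2 ± 2.24 CPM in KO paused, 28.0 ± 3.04 CPM in KO FBS, 27.2 ± 2.07 CPM in WT paused and 28.6 ± 5.03 CPM in WT FBS cells and was not called in any comparison on the relative scale.

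Whether both genotypes responded to pausing alike was tested as the log2 change on pausing in KO cells less that in WT cells. On the relative scale 5 imprinted genes had a higher and 6 a lower effect in KO cells, 29.7% of the 37 beside 17.9% of all genes (9.61% higher and 8.26% lower). Meg3 (difference −1.22 ± 0.26, edgeR adjusted p = 0.00680), Mest (1.21 ± 0.24, edgeR adjusted p = 0.00495) and Nnat (1.13 ± 0.18, edgeR adjusted p = 0.00142) kept their calls without each of the 12 libraries in turn. For Meg3, pausing gave 0.04 ± 0.20 in KO and 1.26 ± 0.16 in WT cells. For Mest it gave 0.95 ± 0.16 in KO and −0.27 ± 0.18 in WT cells, and for Nnat 1.40 ± 0.13 in KO and 0.27 ± 0.13 in WT cells. The other 8 calls did not. That of Rtl1 was lost without KO paused replicate 3 or KO FBS replicate 3 (−1.62 to −1.42), that of Rian without KO paused replicate 1 or 2 or KO FBS replicate 1 (−1.10 to −1.05) and that of Sgce without KO paused replicate 1 or 2, KO FBS replicate 2 or 3 or WT paused replicate 3 (0.77 to 0.92). Kcnq1ot1 lost its call without any one of the 7 libraries other than KO paused replicate 1, KO FBS replicate 3, WT paused replicate 2 or WT FBS replicate 1 or 3 (−0.94 to −0.70) and Peg3 without any one of the 8 libraries other than WT paused replicate 1 or WT FBS replicate 1, 2 or 3 (−0.94 to −0.69). Ascl2 lost its call without any one of the 10 libraries other than WT paused replicate 2 or WT FBS replicate 1 (−1.58 to −1.20), Magel2 without any one of the 11 libraries other than WT FBS replicate 1 (0.92 to 1.28) and Mcts2 without any one of the 9 libraries other than KO FBS replicate 2, WT paused replicate 1 or WT FBS replicate 1 (0.63 to 0.79). Without WT FBS replicate 1 the difference was also called for Impact (−0.94), Igf2r (−0.53), Ndn (−0.46) and Nap1l4 (0.41). Grb10 was called without WT paused replicate 3 (1.05) and Plagl1 without WT FBS replicate 2 (0.93). The count of 11 calls fell to 4 without KO paused replicate 2, to 5 without KO FBS replicate 1, KO paused replicate 1, KO FBS replicate 3 or KO paused replicate 3, and to 6 without KO FBS replicate 2 or WT paused replicate 3.

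**Figure D4:**
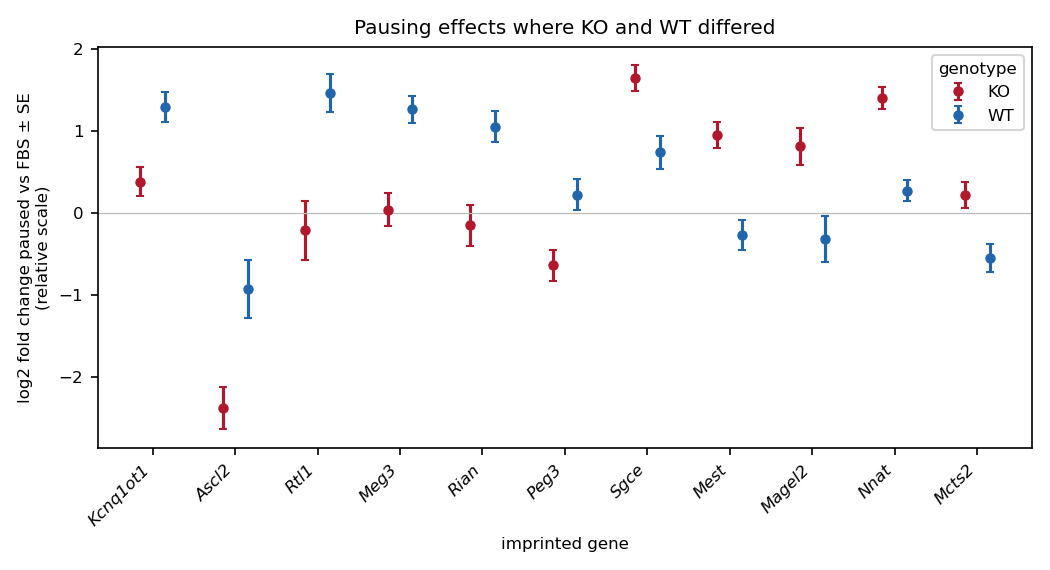
Log2 fold change of paused against FBS cells ± SE on the relative scale in KO (red) and WT (blue) cells for the 11 imprinted genes with a called difference between both effects. Rtl1, Meg3 and Rian rise in WT cells and lie near 0 in KO cells, while Mest and Nnat rise in KO cells.

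The added ERCC spike-ins give a second scale, counts per spike-in count. The spike-ins were added to RNA extracted from equal numbers of cells, so the scale is per cell as far as the yield of extraction was equal, which was not tested. The median gene had a log2 change on pausing of −0.72 in KO and −1.05 in WT cells on this scale. Here 2 imprinted genes rose, 13 fell and 22 were not called in KO paused against KO FBS cells, 40.5% beside 48.2% of all genes (2.45% higher and 45.7% lower). That count moved to 27 called without KO FBS replicate 1 and to 9, 7 and 8 without KO paused replicate 1, KO paused replicate 2 and KO FBS replicate 3. In WT paused against WT FBS cells 0 rose, 21 fell and 16 were not called, 56.8% beside 69.9% of all genes (1.15% higher and 68.8% lower). The risers in KO cells were Plagl1 (1.27 ± 0.34, edgeR adjusted p = 0.000925) and Sgce (0.92 ± 0.35, edgeR adjusted p = 0.0212), the second lost without KO paused replicate 2 or 3 or KO FBS replicate 3 (0.78 to 0.97). Meg3 and Rian, which rose on the relative scale in WT cells, were 0.22 ± 0.33 and 0.02 ± 0.33 per cell and not called. H19, Igf2, Ascl2, Phlda2 and Grb10 fell per cell in both genotypes, with H19 at −3.09 ± 0.35 in KO and −2.64 ± 0.37 in WT cells and Igf2 at −3.01 ± 0.35 in KO and −4.03 ± 0.41 in WT cells.

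Between genotypes the per-cell values of the leading genes were close to the relative ones. In KO FBS against WT FBS cells 8 imprinted genes were higher and 7 lower per cell, 40.5% beside 28.9% of all genes (19.1% higher and 9.81% lower), and all 15 were called in the same direction on the relative scale. In KO paused against WT paused cells 13 were higher and 7 lower, 54.1% beside 32.8% of all genes (27.1% higher and 5.62% lower), and 19 of the 20 were called in the same direction on the relative scale. Dlk1 was the other (1.02 ± 0.40, edgeR adjusted p = 0.0371), lost without KO paused replicate 1, 2 or 3, KO FBS replicate 3 or WT paused replicate 1 or 3 (0.90 to 1.09). Per cell, Meg3 was −3.01 ± 0.36 in KO FBS against WT FBS and −3.90 ± 0.37 in KO paused against WT paused, H19 3.46 ± 0.35 and 3.01 ± 0.37, and Grb10 −3.22 ± 0.35 and −2.16 ± 0.34 in the same order. The difference between the pausing effects was called for 1 imprinted gene per cell, Mest (1.46 ± 0.46, edgeR adjusted p = 0.0332), which is 2.70% beside 4.70% of all genes (3.04% higher and 1.66% lower), and the call was lost without any one of the 9 libraries other than KO FBS replicate 2, WT paused replicate 2 or WT FBS replicate 1 (1.19 to 1.57). In turn, 7 imprinted genes were called without KO FBS replicate 2 and 3 without WT FBS replicate 1.

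Proteins that set, keep or remove imprints were described through a list of 24 genes, all tested. On the relative scale 5 were higher and 12 lower in KO FBS against WT FBS cells, beside 28.4% and 29.4% of all genes. The median was −0.42 beside −0.04 over all genes. In KO paused against WT paused cells 4 were higher and 12 lower, beside 27.9% and 23.9%, with a median of −0.30 beside 0.01. Per cell few were lower. There 4 were higher and 1 lower in KO FBS against WT FBS cells (19.1% and 9.81% of all genes, medians −0.31 and 0.05). In KO paused against WT paused cells 5 were higher and 2 lower per cell (27.1% and 5.62%, medians 0.09 and 0.39). The values below are on the relative scale. Zfp57, the zinc finger gene named above, stood at 136, 167 and 174 CPM in KO paused and 144, 177 and 165 CPM in KO FBS libraries. In WT libraries Zfp57 had 632, 642 and 679 CPM in the paused and 197, 363 and 348 CPM in the FBS group. All KO libraries lay below all WT libraries, and WT paused lay above WT FBS. Its log2 fold change was −0.90 ± 0.19 (edgeR adjusted p = 0.00125) in KO FBS against WT FBS, −2.03 ± 0.19 (edgeR adjusted p = 3.22e-06) in KO paused against WT paused and 1.10 ± 0.19 (edgeR adjusted p = 0.000906) on pausing in WT cells, with −0.03 ± 0.19 on pausing in KO cells. The maintenance genes Dnmt1 and Uhrf1 were lower in KO FBS than in WT FBS cells (−0.51 ± 0.09 and −0.79 ± 0.11) and in KO paused than in WT paused cells (−0.59 ± 0.09 and −0.50 ± 0.11). Trim28 was −0.42 and not called in KO FBS against WT FBS cells, but was called without WT FBS replicate 1 (−0.70). It was lower in KO paused than in WT paused cells (−0.61), a call lost without any one of 7 libraries (−0.67 to −0.56). Of the other listed genes, Setdb1 was higher in KO FBS (0.39) and KO paused cells (0.55), and Zfp445 was not called in either (0.11 and 0.06). The de novo methyltransferase gene Dnmt3b and its cofactor Dnmt3l were higher in KO FBS than in WT FBS cells (1.19 ± 0.25 and 1.28 ± 0.19). Dnmt3b was also higher in KO paused than in WT paused cells (1.49 ± 0.26), where Dnmt3l was 0.19 ± 0.19 and not called. The other de novo enzyme gene, Dnmt3a, was lower in KO FBS than in WT FBS cells (−0.79 ± 0.30), a call lost without any one of the 9 libraries other than KO paused replicate 3, WT paused replicate 2 or WT FBS replicate 1 (−0.86 to −0.49). Dppa3, whose protein shields maternal methylation in the zygote, was at 5.02 ± 0.867 CPM in KO paused, 32.5 ± 0.790 CPM in KO FBS, 1.13 ± 0.725 CPM in WT paused and 4.97 ± 2.50 CPM in WT FBS cells. It was higher in KO FBS than in WT FBS cells (2.62 ± 0.31, edgeR adjusted p = 1.45e-05) and fell on pausing in KO (−2.68 ± 0.31) and WT cells (−2.04 ± 0.40). The dioxygenase gene Tet2, which starts removal of DNA methylation, was lower in KO FBS than in WT FBS (−1.22 ± 0.16) and in KO paused than in WT paused cells (−2.41 ± 0.16), while Tet3 was higher (0.77 ± 0.12 and 1.5 ± 0.12). No relation between these genes and the imprinted ones was tested.

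Of 55 other imprinted genes listed, 39 were tested. In KO FBS against WT FBS cells 19 were higher and 12 lower, beside 28.4% and 29.4% of all genes. The median was 0.52 beside −0.04 over all genes. In KO paused against WT paused cells 15 were higher and 13 lower, beside 27.9% and 23.9%, with medians of −0.01 and 0.01. On pausing 13 rose and 15 fell in KO cells, beside 23.3% and 19.4% (medians −0.14 and 0.03). In WT cells 11 rose and 10 fell, beside 18.0% and 20.2% (medians 0.06 and −0.02). Besides Cobl, the genes with the lowest adjusted p between genotypes were Zdbf2 (−1.91 ± 0.12 in KO FBS against WT FBS, with a neighbour median of −0.67), the placental repressor gene Sfmbt2 (2.74 ± 0.18) and the amino acid transporter gene Slc38a4 (−1.15 ± 0.09). In KO paused against WT paused cells they were Peg12 (2.83 ± 0.14), Atp10a (2.35 ± 0.14) and Zdbf2 (−1.89 ± 0.12). Peg12 and Atp10a belong to the wider Snrpn and Ube3a domain. On pausing, Sfmbt2 fell in KO cells (−3.54 ± 0.19), and Slc38a4 fell in KO (−0.89 ± 0.09) and WT cells (−1.84 ± 0.09), while the noncoding RNA gene Peg13 rose in KO (1.65 ± 0.17) and WT cells (1.66 ± 0.18). Sfmbt2 and Slc38a4 are imprinted in the placenta.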

How the data were processed

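RNA was measured in 12 bulk libraries of E14 cells, 3 in each of 4 groups, each from 200000 cells with ERCC Mix 1 spike-ins added to the extracted RNA, per the labels' protocols. The deposited counts are whole reads per gene, made by the authors with Trim Galore, Subread 1.5.0 and featureCounts on mm10, per the submitters' processing notes; strand use is not given in the sources used here. The deposited log2 values are normalized to cell number by the authors, per the labels, and the notes also list edgeR 3.32.1. They equalled the log2 of the count + 0.5 plus a constant per library over the 3390 genes compared, and those constants served as an alternative scaling only.

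Counts were fitted with edgeR 4.0.16 (quasi-likelihood, robust, 4 group means over all 12 libraries) after filterByExpr with a minimum count of 10. P-values were Benjamini-Hochberg adjusted over 15281 genes at a threshold of 0.05. The relative scale used gene totals with TMM factors and the per-cell scale ERCC totals with TMM factors over ERCC rows. DESeq2 1.42.0, other scalings, no filter, a replicate block and leaving out each library were alternatives. The test was checked on simulated data. Libraries held 10339130 to 39034079 gene counts, and rows with few counts, such as Snrpn, Mirg and Rtl1, carry large counting error. Rn45s took 22.1% to 28.0% of gene counts in the replicate 1 library of each group and 12.9% to 17.6% in the other libraries, and stayed in. Positions come from GENCODE M21, and 359 rows had no match there, none of them a member.

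The members and lists were chosen with earlier results of these data known. By rule, values of every library are given for up to 25 called members with the lowest adjusted p, and the others by means; genes of most similar pattern are not named because the libraries cluster by group.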

Additional observations from a re-analysis of the deposited data

Results flagged for a closer look

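These 11 imprinted genes had a change on pausing that differed between KO and WT cells on the relative scale, each by edgeR's test of the difference itself with adjustment over all tested genes. The change was smaller or more negative in KO cells for Rtl1 (difference −1.67 ± 0.43, edgeR adjusted p = 0.0186), Ascl2 (−1.45 ± 0.46, edgeR adjusted p = 0.0449), Meg3 (−1.22 ± 0.26, edgeR adjusted p = 0.00680), Rian (−1.20 ± 0.31, edgeR adjusted p = 0.0199), Kcnq1ot1 (−0.91 ± 0.25, edgeR adjusted p = 0.0274) and Peg3 (−0.86 ± 0.27, edgeR adjusted p = 0.0445). It was larger in KO cells for Mest (1.21 ± 0.24, edgeR adjusted p = 0.00495), Magel2 (1.14 ± 0.36, edgeR adjusted p = 0.0469), Nnat (1.13 ± 0.18, edgeR adjusted p = 0.00142), Sgce (0.91 ± 0.26, edgeR adjusted p = 0.0284) and Mcts2 (0.76 ± 0.23, edgeR adjusted p = 0.0407). Of the maternal RNAs of the Dlk1 and Meg3 domain, Mirg had a difference of −1.40 ± 0.54 (edgeR adjusted p = 0.107) and was not called. Only Meg3, Mest and Nnat were called without each of the 12 libraries in turn. On the per-cell scale Mest (1.46 ± 0.46, edgeR adjusted p = 0.0332) was called and the other 10 were not.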

How the results depend on the processing

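On the relative scale the 2 compared groups were also fitted alone, with fewer libraries to estimate the spread. This kept 10 of 17 called imprinted genes in WT paused against WT FBS and 20 of 27 in KO FBS against WT FBS cells. All 15 were kept in KO paused against KO FBS cells. In KO paused against WT paused cells all 23 were kept, and Dlk1, Mkrn3, Plagl1 and Igf2r were called too. The cause of these shifts was not tested. Leaving out 1 library at a time gave 20 to 29 calls in KO FBS against WT FBS, 19 to 27 in KO paused against WT paused, 11 to 15 in KO paused against KO FBS, 11 (without WT FBS replicate 2) to 23 (without WT FBS replicate 1) in WT paused against WT FBS, and 4 (without KO paused replicate 2) to 15 (without WT FBS replicate 1) for the difference between the pausing effects. Per cell the ranges were 13 to 19, 15 to 22, 7 (without KO paused replicate 2) to 27 (without KO FBS replicate 1), 14 to 22, and 0 to 7 (without KO FBS replicate 2), in the same order. The difference per cell was called for 0 imprinted genes with the ERCC total alone and for 3 with the authors' offsets, against 1, and the cause was not tested. Over the 25 genes given library by library, leaving out 1 library lost 116 and gained 13 calls on the relative scale, and lost 62 and gained 31 per cell. Among these 25 genes no called result changed direction under any alternative run.

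With the replicate number as a block, KO paused against KO FBS cells had 24 calls per cell, against 15, and the difference between pausing effects 7 per cell, against 1, and 14 on the relative scale, against 11. The labels state no shared origin for the numbers. Still, 12 of 18 pairs of same-numbered libraries had correlated deviations over 0.1 (−0.008 to 0.312), and 9 of 12 libraries correlated best with their own number. Replicate 1 of every group also had a higher Rn45s share (22.1% to 28.0%) than the other libraries (12.9% to 17.6%). Libraries of 1 number thus shared differences that the main fit, without a replicate term, does not take up. Counts were few for Snrpn, with 1 to 16 a group, where the fate of reads shared with Snurf was not tested. They were also few for other rows, such as Mirg with 12 in each KO group, Ascl2 with 23, Airn with 22 and Zim1 with 24 in WT paused cells, and Rtl1 with 24 in KO paused and 31 in KO FBS cells.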
